A study of Homo sapiens with 6 samples.

Results

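A set of 10 genes that receive, dampen or carry out WNT signals was described in the human gastric cancer line NCI-N87, an established epithelial line with many copies of ERBB2. They were taken by gene name, and each of the 10 names matched 1 row of the 58735 genes in the deposited tables. The cells had received a lentiviral puromycin-resistance plasmid, PLVX-IRES-Puro, which carried EGLN3 in 3 libraries and was empty in 3 control libraries, and all had 7 days of puromycin. The plasmid stage lasted 1 day in 5 libraries and is given as 5 days for EGLN3 replicate 3. EGLN3 encodes PHD3, a prolyl hydroxylase known for marking hypoxia-inducible factors for degradation. The comparison asked how raised EGLN3 alters the RNA of this 1 line. The genes were chosen by WNT output and receptor levels in this line and by the difference between the EGLN3 and empty plasmids, so those values are given as a description, with no test.

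In canonical WNT signalling a WNT ligand binds a Frizzled receptor with LRP5 or LRP6, the destruction complex stops breaking down beta-catenin, and beta-catenin turns on target genes together with a TCF or LEF factor. Several targets feed back on the pathway: AXIN2 rebuilds the destruction complex, RNF43 and ZNRF3 remove Frizzled from the cell surface, and NKD1 acts on Dishevelled. R-spondins, through LGR receptors such as LGR5, hold RNF43 and ZNRF3 in check. ROR1 and ROR2 belong to a separate branch, in which they bind WNT5A and act on cell polarity and migration. In the stomach and intestine LGR5 and AXIN2 mark cells that respond to WNT, and inactivated RNF43 is common in cancers of these tissues.

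RefSeq promoter windows on GRCh38.p14, from 250 bases before to 50 after a transcript start, were at hand for 6 of the 10 genes. ROR1 and RNF43 are shown because their levels ran in nearly opposite order over the 6 libraries, and an internal start of TCF7L2 because its window held a TCF/LEF core. Capitals mark the core that TCF and LEF proteins bind, searched as CTTTGAT and in the variant forms CTTTGAA and likewise CTTTGTT and likewise CTTTGTA, and the core of a hypoxia-response element, searched as ACGTG and the form GCGTG, each on both strands. Each sequence runs from 5′ to 3′ on the strand of its gene.
ROR1, chr1:63773767-63774066, plus strand: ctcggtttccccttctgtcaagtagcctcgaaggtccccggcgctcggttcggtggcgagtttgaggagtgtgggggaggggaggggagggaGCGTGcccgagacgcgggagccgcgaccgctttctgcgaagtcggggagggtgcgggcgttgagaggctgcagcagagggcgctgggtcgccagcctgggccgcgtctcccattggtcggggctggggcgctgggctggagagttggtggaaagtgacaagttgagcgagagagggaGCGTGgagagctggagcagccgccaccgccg
RNF43, chr17:58417485-58417784, minus strand: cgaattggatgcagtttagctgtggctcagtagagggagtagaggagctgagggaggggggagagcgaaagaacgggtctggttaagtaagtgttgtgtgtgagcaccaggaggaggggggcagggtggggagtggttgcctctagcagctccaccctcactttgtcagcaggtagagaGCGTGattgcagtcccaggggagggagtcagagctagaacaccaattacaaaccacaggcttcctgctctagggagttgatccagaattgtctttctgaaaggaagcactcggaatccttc
TCF7L2 internal start, chr10:113126383-113126682, plus strand: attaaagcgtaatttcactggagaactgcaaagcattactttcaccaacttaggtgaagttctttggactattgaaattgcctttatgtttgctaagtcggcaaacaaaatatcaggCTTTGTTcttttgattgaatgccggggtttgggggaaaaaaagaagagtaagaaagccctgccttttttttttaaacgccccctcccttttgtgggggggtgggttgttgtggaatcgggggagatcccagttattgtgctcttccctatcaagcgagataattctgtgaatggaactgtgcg
The ROR1 window was rich in G and C (69.0%) and held GCGTG at -158 and 20 relative to the start, while the RNF43 window (54.3% G and C) held it once, at -71. Neither held a TCF/LEF core. The TCF7L2 window held CTTTGTT at -133. Of 35116 RefSeq windows of 300 bases, 13.8% held a TCF/LEF core and 48.4% a hypoxia core, so single matches are common. Over the 10 windows of the 6 genes, the hypoxia core stood in 4. TCF/LEF cores stood in 2, that of TCF7L2 and one of TCF7, where CTTTGTT lay at -50 on the opposite strand.

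The libraries held 15157265 to 16767383 gene counts, and 15726 genes had enough counts to be tested. EGLN3 itself stood at 481, 1640 and 1717 CPM in EGLN3 replicates 1 to 3, against 0.582, 0.702 and 0.565 CPM in control replicates 1 to 3 (CPM, counts set to a common library size after TMM scaling for library composition). Epithelial markers such as KRT8, EPCAM and CDH1 were present in each library, while of 8 fibroblast and 4 endothelial markers only COL1A1 (56 to 74 counts with EGLN3 and 75 to 82 with the empty plasmid) and VWF (8 to 12 and 12 to 20 counts) passed the filter. Both were lower in CPM in each EGLN3 library than in any control library, as were 3.62% of all tested genes. For VWF this rested on 0.749 CPM in EGLN3 replicate 3 against 0.753 CPM in control replicate 3, at 12 counts each. The fibroblast genes COL1A2 and LUM and the blood gene HBB had 0 counts in all 6. The first principal component over the tested genes other than the 10 held 70.02% of the variance and did not separate the groups. It placed EGLN3 replicates 1 to 3 at 59.3, -23.3 and -45.9 and control replicates 1 to 3 at -36.2, 11.5 and 34.4. The second component, with 10.96% of the variance, did separate them. On it EGLN3 replicates 1 to 3 stood at 19.2, 7.8 and 16.2 and control replicates 1 to 3 at -11.3, -20.8 and -11.1. EGLN3 itself was among the genes used, and the separation was not tested. Separate cultures are not named for the replicates, so their spread may be technical.

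AXIN2 was the most abundant of the 10 genes, and LGR5 the least. On the deposited FPKM scale, which is per gene length, AXIN2 averaged 67.4 ± 2.85 FPKM (SD over the 6 libraries), above 95.9% of the 12794 tested protein-coding genes. RNF43 at 21.9 ± 5.27 FPKM and ZNRF3 at 19.8 ± 4.3 FPKM followed, and their ranges overlapped. TCF7 averaged 9.34 ± 0.423 FPKM, and TCF7L2 averaged 6.11 ± 0.553 FPKM. The lowest AXIN2 library stood above the highest RNF43 library, the lowest ZNRF3 library above the highest TCF7 library, and the lowest TCF7 library above the highest TCF7L2 library. NKD1 averaged 3.75 ± 1.03 FPKM, ROR1 2.42 ± 1.05 FPKM and LEF1 1.8 ± 0.331 FPKM, and from TCF7L2 down to LEF1 each gene's range overlapped that of the next. ROR2, at 0.171 ± 0.0237 FPKM, and LGR5, at 0.0366 ± 0.0344 FPKM, lay apart below the others. NKD1 has the longest exon model of the set (17425 bases in the deposited table), and per library rather than per length it gave 43.3 to 95.3 CPM, against 34.4 to 45.7 CPM for TCF7L2.

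**Figure D1:**
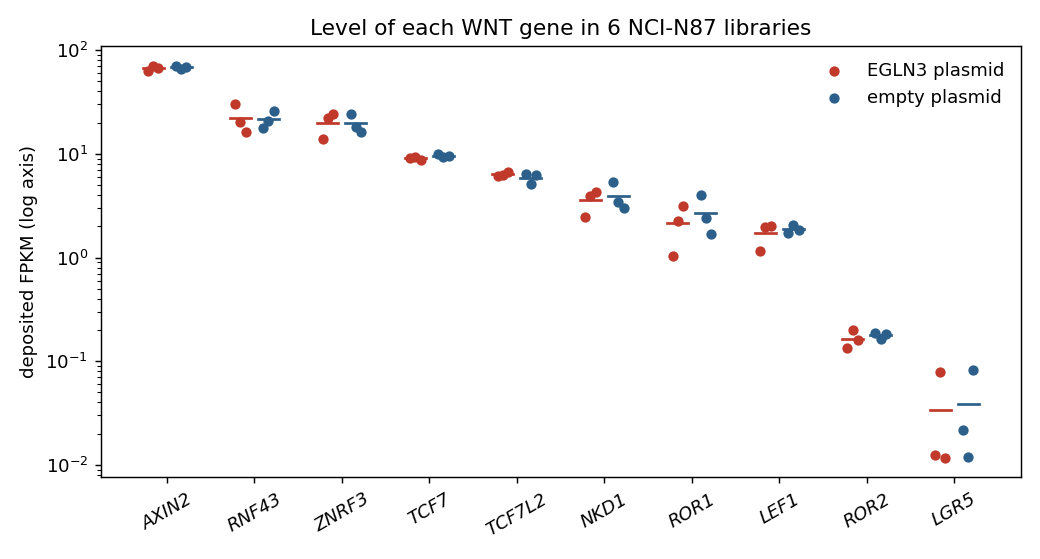
Deposited FPKM (log axis) of the 10 WNT genes, with 1 point per library, EGLN3 libraries in red to the left and empty-plasmid libraries in blue to the right, and a bar at each group's mean. AXIN2 lies near 67.4 FPKM in both groups, while ROR1 and NKD1 spread widely within each group and LGR5 rests on 1 to 7 counts per library.

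ROR1, a receptor of the tyrosine kinase family, varied most among the 9 genes of the set that passed the filter on low counts. It (ENSG00000185483, chromosome 1 from 63774022 to 64181498 on GRCh38, plus strand) spans 407.5 kb, and the antisense gene ROR1-AS1 inside it had at most 1 count in a library. ROR1 measured 6.99, 15.2 and 21.3 CPM in EGLN3 replicates 1 to 3, against 27.5, 16.3 and 11.4 CPM in control replicates 1 to 3. The highest library was a control and the lowest an EGLN3 library, the groups overlapped, and the range was 3.93-fold. Its SD of log2 CPM over the 6 libraries was 0.69, larger than that of 98% of the 1000 tested genes closest to it in level, where the median over all tested genes was 0.29. The group means were 14.5 ± 7.18 CPM with EGLN3 and 18.4 ± 8.24 CPM with the empty plasmid (SD, n = 3 each), a log2 fold change of -0.34 (SE 0.47).

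ROR2, the sister receptor of ROR1, was close to the detection limit. The counts of this gene (ENSG00000169071, chromosome 9 from 91563091 to 91950162, minus strand) were 12, 20 and 15 in EGLN3 replicates 1 to 3, against 19, 15 and 17 in control replicates 1 to 3. The sums of 47 counts with EGLN3 and 51 with the empty plasmid have exact Poisson 95% intervals of 34.5 to 62.5 and 38 to 67.1, which cover counting error only. The FPKM of ROR1 was 7.65, 11.1 and 19.7 times that of ROR2 in EGLN3 replicates 1 to 3, against 21.5, 14.8 and 9.22 times in control replicates 1 to 3. ROR1 was thus the more abundant of the pair in each library. WNT5A, the ligand of both, had 0 counts in the 3 EGLN3 libraries and 1 count over the 3 control libraries.

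LGR5, the R-spondin receptor that marks intestinal and gastric stem cells, was nearly absent. The gene (ENSG00000139292) lies on chromosome 12 from 71439770 to 71586310 on the plus strand, and its first 2129 bp overlap TSPAN8 on the opposite strand. It had 1, 7 and 1 counts in EGLN3 replicates 1 to 3, against 2, 1 and 7 in control replicates 1 to 3, and was the 1 gene of the 10 that did not pass the filter on low counts. The sums of 9 counts with EGLN3 and 10 with the empty plasmid have exact Poisson 95% intervals of 4.12 to 17.1 and 4.8 to 18.4, so no difference was detectable at this depth. TSPAN8 had 377 to 542 counts with EGLN3 and 344 to 530 with the empty plasmid, and the sources used here do not say whether counting used strand. The other R-spondin receptors were present, LGR6 at 13.6 FPKM with EGLN3 and 14.5 FPKM with the empty plasmid and LGR4 at 2.23 and 1.85 FPKM. The 4 R-spondins themselves had 0 to 7 counts in any library.

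RNF43 and ZNRF3, the membrane ubiquitin ligases that clear Frizzled receptors, had like mean levels but moved in opposite order over the libraries. RNF43 (ENSG00000108375, chromosome 17 from 58352500 to 58417595, minus strand) measured 228, 152 and 124 CPM in EGLN3 replicates 1 to 3, against 136, 158 and 196 CPM in control replicates 1 to 3. ZNRF3 (ENSG00000183579, chromosome 22 from 28883592 to 29057487, plus strand) measured 97.2, 155 and 171 CPM in EGLN3 replicates 1 to 3, against 172, 128 and 115 CPM in control replicates 1 to 3. EGLN3 replicate 1 was the highest library for RNF43 and the lowest for ZNRF3. The groups overlapped for both. The ratio of RNF43 to ZNRF3 in FPKM was 2.18, 0.911 and 0.674 in EGLN3 replicates 1 to 3, against 0.735, 1.15 and 1.58 in control replicates 1 to 3, so either ligase could be the more abundant within a group. The log2 fold changes were 0.04 (SE 0.26) for RNF43 and 0.03 (SE 0.26) for ZNRF3. RNF43 shares 594 bp with SUPT4H1 (0 to 5 counts per library) and most of its span with the antisense gene TSPOAP1-AS1, which had 17 to 58 counts per library. Its whole span also lies within AC004687.2 on the same strand (65096 shared bp), which had 4 to 14 counts per library. Whether reads in these shared parts were counted for RNF43 was not tested.

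AXIN2, the scaffold whose RNA is a standard readout of beta-catenin activity, hardly varied. The gene (ENSG00000168646, chromosome 17 from 65528563 to 65561647, minus strand) measured 330, 374 and 354 CPM in EGLN3 replicates 1 to 3, against 370, 349 and 359 CPM in control replicates 1 to 3. The lowest and the highest library were both EGLN3 libraries, and the range was 1.13-fold. Its SD of log2 CPM was 0.07, larger than that of 6.4% of the 1000 genes closest in level. The group means were 353 ± 22 CPM with EGLN3 and 359 ± 10.6 CPM with the empty plasmid (SD, n = 3 each), a log2 fold change of -0.03 (SE 0.12). AXIN2 shares 23546 bp with AC004805.1 on the same strand, which had 1 to 24 counts per library.

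NKD1, which binds Dishevelled and is itself a WNT target, varied more than AXIN2 did. The gene (ENSG00000140807, chromosome 16 from 50548330 to 50649249, plus strand) measured 43.3, 69.2 and 76.5 CPM in EGLN3 replicates 1 to 3, against 95.3, 60.5 and 52.3 CPM in control replicates 1 to 3. As for ROR1 and ZNRF3, control replicate 1 was highest and EGLN3 replicate 1 lowest, and the groups overlapped. The log2 fold change was -0.14 (SE 0.30).

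Of the TCF and LEF factors, the proteins that carry beta-catenin to DNA, TCF7 made up the largest share in every library. TCF7 gave 54, 52.9 and 49.4% of the summed FPKM of TCF7, TCF7L2, LEF1 and TCF7L1 in EGLN3 replicates 1 to 3, against 54.3, 55 and 53.1% in control replicates 1 to 3. TCF7L2 gave 30.2 to 37.5% over the 6 libraries, LEF1 gave 7 to 12.2% and TCF7L1 gave 0.8 to 2.7%. TCF7 (ENSG00000081059, chromosome 5 from 134114711 to 134151865, plus strand) measured 91.2, 95.4 and 90 CPM in EGLN3 replicates 1 to 3, against 102, 93.7 and 97.2 CPM in control replicates 1 to 3. The groups overlapped, and the log2 fold change was -0.08 (SE 0.12). Its last 2931 bp overlap SKP1 on the opposite strand, which had 2605 to 5020 counts per library, so some reads at that end may be shared.

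TCF7L2, the factor known from the adult gut, and LEF1, often a WNT target itself, differed in how even they were. TCF7L2 (ENSG00000148737, chromosome 10 from 112950250 to 113167678, plus strand) measured 41, 42.4 and 45.7 CPM in EGLN3 replicates 1 to 3, against 43.8, 34.4 and 42.4 CPM in control replicates 1 to 3. LEF1 (ENSG00000138795, chromosome 4 from 108047545 to 108168956, minus strand) measured 6.27, 10.7 and 11 CPM in EGLN3 replicates 1 to 3, against 9.43, 11.1 and 9.98 CPM in control replicates 1 to 3. For LEF1, EGLN3 replicate 1 stood apart below the other 5 libraries. Their log2 fold changes were 0.10 (SE 0.14) for TCF7L2 and -0.12 (SE 0.24) for LEF1, and the groups overlapped for both.

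Between the groups, 0 of the 9 genes that passed the filter were called at an adjusted p under 0.05 (edgeR quasi-likelihood test, Benjamini-Hochberg over all genes), where 0.00636% of all tested genes, EGLN3 alone, were. DESeq2 and limma-voom also called 0 of the 9, but over all 15726 tested genes they called only 1 and 0. With any of the 3 tools, 0 of the 9 had an unadjusted p under 0.05. Of all tested genes, 174 did with edgeR (1.11%), 163 with DESeq2 and 181 with limma-voom. The groups did not overlap in CPM for 0 of the 9 genes and for 6.26% of all tested genes (2.64% with all EGLN3 libraries above, 3.62% with all below). The 9 log2 fold changes ran from -0.34 to 0.10 with a median of -0.08, beside a median of 0.01 over all tested genes. Since this comparison took part in choosing the genes, nothing is read from these counts.

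The order of the libraries in several of these genes followed the first principal component. From its lowest score to its highest the libraries ran EGLN3 replicate 3, control replicate 1, EGLN3 replicate 2, control replicate 2, control replicate 3 and EGLN3 replicate 1. RNF43 followed exactly that order, with 124 CPM at the low end and 228 CPM at the high end, both EGLN3 libraries. ZNRF3 and NKD1 ran the opposite way, except that control replicate 1 stood above EGLN3 replicate 3. ROR1 also ran the opposite way, but both EGLN3 libraries at the low end, at 21.3 and 15.2 CPM, stood below the control library that scored next above them, at 27.5 and 16.3 CPM. TCF7L2 ran the opposite way too, from 45.7 CPM at the low end to 41 CPM at the high end, except that control replicate 2 was lowest (34.4 CPM). AXIN2 did not follow the order. The summed CPM of 7 epithelial markers, carried mostly by KRT8, KRT18 and KRT19, moved along the same component, at 54100, 37300 and 33800 in EGLN3 replicates 1 to 3, against 38900, 47400 and 47800 in control replicates 1 to 3. CDH1 ran the other way, at 269, 384 and 405 CPM in EGLN3 replicates 1 to 3, against 390, 324 and 301 CPM in control replicates 1 to 3, ERBB2 was lowest in EGLN3 replicate 1 (8443 CPM), and EPCAM stayed between 366 and 468 CPM. The part of these genes in the differences was not tested.

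**Figure D2:**
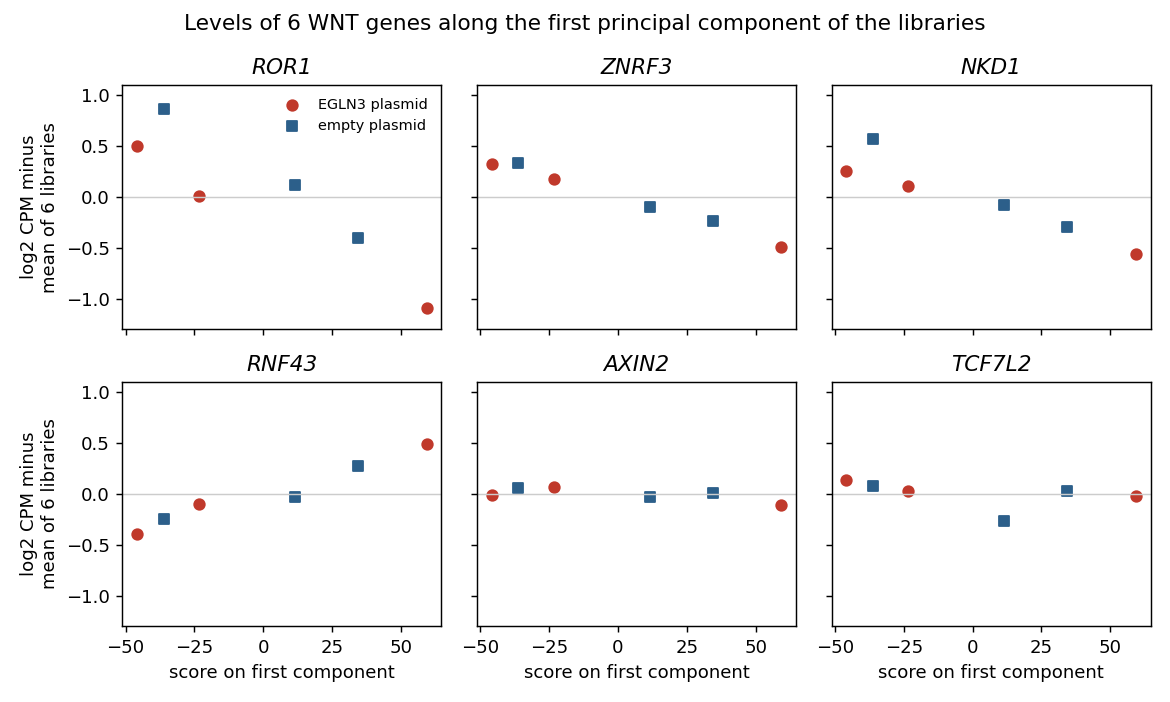
Log2 CPM minus the mean of the 6 libraries for 6 WNT genes, against each library's score on the first principal component of the other tested genes, with EGLN3 libraries as red circles and empty-plasmid libraries as blue squares. RNF43 increases along the component, ROR1, ZNRF3 and NKD1 decrease, and AXIN2 stays between -0.11 and 0.07.

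A second fit added 1 surrogate variable, an estimate of variation that the groups do not define, and each library's trends on GC content and gene length. The surrogate variable and trends come from the same libraries and were then taken as known, so its SEs may be too small. In it 1.05% of all tested genes were called, 0.375% higher and 0.674% lower with EGLN3, ROR1 among them. With the surrogate variable alone 4.53% were called, ROR1 and NKD1 among them. Nothing is read from these calls either, since this comparison took part in choosing the genes. As a description, the log2 fold change of ROR1 was -0.51 (SE 0.10) in the second fit and -0.54 with the surrogate variable alone. Leaving out 1 library at a time, the value in the second fit stayed between -0.59 and -0.47. In the uncorrected fit the ROR1 value was 0.00 without EGLN3 replicate 1 and 0.06 without control replicate 1. NKD1 had a log2 fold change of -0.17 (SE 0.06) in the second fit, while the other 7 genes had values from -0.12 to 0.07. AXIN2 was at 0.02 (SE 0.04).

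**Figure D3:**
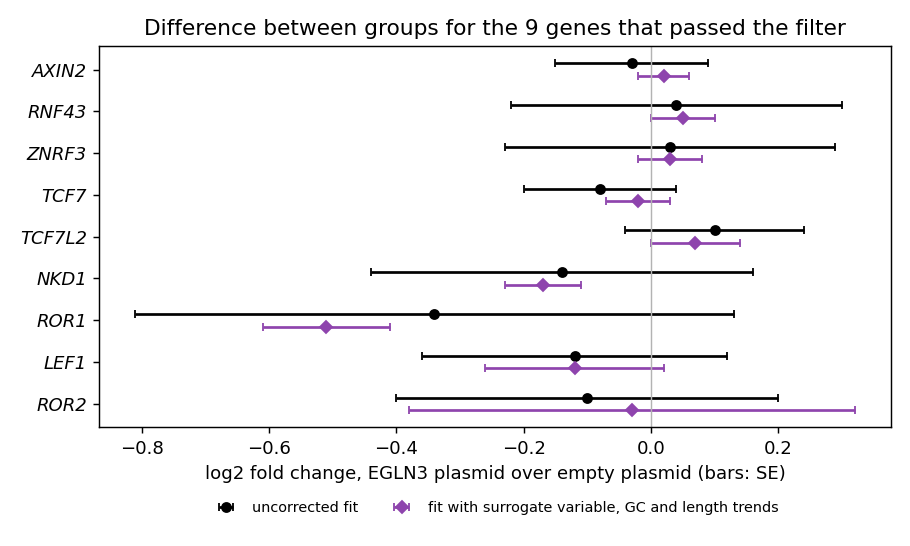
Log2 fold change, EGLN3 plasmid over empty plasmid, with its SE as bars for the 9 genes that passed the filter, in the uncorrected fit (black circles) and in the fit with a surrogate variable and trends on GC content and length (purple diamonds). ROR1 lies at -0.34 and -0.51, and AXIN2, RNF43 and ZNRF3 lie between -0.03 and 0.05 in both.

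Of the other WNT genes, 105 were listed by role and 74 passed the filter. With edgeR, DESeq2 and limma-voom 0 of the 74 were called, where 1, 1 and 0 of all tested genes were. In the second fit 0 of the 74 were called, beside 165 of all tested genes. There 14 of the 74 had an unadjusted p under 0.05 (2056 of all 15726 tested genes did). With the surrogate variable alone 11 were called, all lower with EGLN3, beside 713 of all tested genes, of which 169 were higher. These 11 were spread over the roles: WNT11, LRP5, DVL1, CSNK1A1, BCL9L, CTBP1, CELSR1, SCRIB, NOTUM, KREMEN1 and KREMEN2. With edgeR 0 had an unadjusted p under 0.05 in the uncorrected fit, and 26 were higher and 48 lower, with a median log2 fold change of -0.05. Over all tested genes 8210 were higher and 7516 lower. The groups did not overlap for 5 of the 74 (6.76%), all lower with EGLN3: WNT3, WNT10B, WLS, PTK7 and CTBP1. Of all tested genes 3.62% were lower in this way and 2.64% higher, 6.26% in either direction. Among 19 WNT ligands 8 passed the filter, with a median of -0.22 (-0.16 in the second fit) and 7 of 8 lower. WNT11, a ligand best known for polarity signalling, gave 85.4 to 88.8% of the summed ligand FPKM in each library. It averaged 131 FPKM with EGLN3 and 157 FPKM with the empty plasmid, with a log2 fold change of -0.27 (SE 0.21), and WNT9A followed at 7.1 and 7.97 FPKM. The largest difference in the list was that of WNT5B, a relative of WNT5A, at -0.94 (SE 0.60), on 0.25 to 1.47 CPM per library. WLS, which carries WNT proteins to the surface, measured 42.6, 48.3 and 46.3 CPM in EGLN3 replicates 1 to 3, against 55.7, 51 and 50.2 CPM in control replicates 1 to 3, with a log2 fold change of -0.19 (SE 0.12). PORCN, which adds the lipid that WNT proteins need, was at -0.01 (SE 0.18).

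Receptors for these ligands were well represented. Of 14 Frizzleds and co-receptors 11 passed the filter, 5 higher and 6 lower, with a median of -0.12. PTK7, a polarity co-receptor, averaged 25.2 FPKM with EGLN3 and 27.8 FPKM with the empty plasmid, and LRP5, a co-receptor of canonical WNT, 21.8 and 26.5 FPKM. LRP5 had the largest difference of this list, a log2 fold change of -0.28 (SE 0.17), and LRP6 was at 0.20 (SE 0.44). FZD8 and FZD10 had 0 counts in all 6 libraries. The R-spondin receptors LGR4 and LGR6 were at 0.27 (SE 0.32) and -0.09 (SE 0.12).

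Among 14 secreted antagonists and their receptors only 4 passed the filter, and all 4 had negative log2 fold changes (median -0.32, or -0.24 in the second fit). None was called in the uncorrected or second fit. NOTUM, KREMEN1 and KREMEN2 were called with the surrogate variable alone, as were 4.53% of all tested genes. NOTUM, an enzyme that strips the lipid from WNT proteins and is a WNT target, measured 12.6, 8.95 and 8.55 CPM in EGLN3 replicates 1 to 3, against 11.6, 14.1 and 15.8 CPM in control replicates 1 to 3. Its log2 fold change was -0.47 (SE 0.21), or -0.31 (SE 0.11) in the second fit. DKK1, which blocks LRP5 and LRP6, averaged 16.5 FPKM with EGLN3 and 18.4 FPKM with the empty plasmid, and its receptor KREMEN1 8.8 and 10.2 FPKM. KREMEN2 was at -0.43 (SE 0.23).

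Inside the cell, all 15 genes of the destruction complex and Dishevelled passed the filter, 6 higher and 9 lower, with a median of -0.02. The Dishevelled gene DVL1 averaged 68.2 FPKM with EGLN3 and 83 FPKM with the empty plasmid, a log2 fold change of -0.29 (SE 0.17), and DVL3 was at -0.02 (SE 0.11). APC2 had the largest difference, -0.53 (SE 0.36), on 0.858 to 2.44 CPM per library. CTNNB1, which encodes beta-catenin, was at -0.04 (SE 0.20). Of 11 nuclear partners of TCF factors 10 passed the filter (median -0.04). PYGO2 was at -0.09 (SE 0.13), BCL9L at -0.04 (SE 0.48) and TLE2, a co-repressor, at -0.45 (SE 0.23). BCL9L was at -0.05 in the second fit and at -0.26 with the surrogate variable alone.

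Of 13 other target genes of the pathway 11 passed the filter, 3 higher and 8 lower, with a median of -0.04. CCND1 averaged 96.1 FPKM with EGLN3 and 96.8 FPKM with the empty plasmid, and MYC 92.6 and 92.4 FPKM. APCDD1, at 0.291 to 1 CPM per library, had the largest difference, -0.28 (SE 0.51). SP5, a transcription factor known as a direct target, was at -0.17 (SE 0.25). Of 11 polarity genes all passed the filter (7 higher, median 0.04, or -0.05 in the second fit), with SCRIB at -0.25 (SE 0.15) and VANGL1 at 0.02 (SE 0.21).

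**Figure D4:**
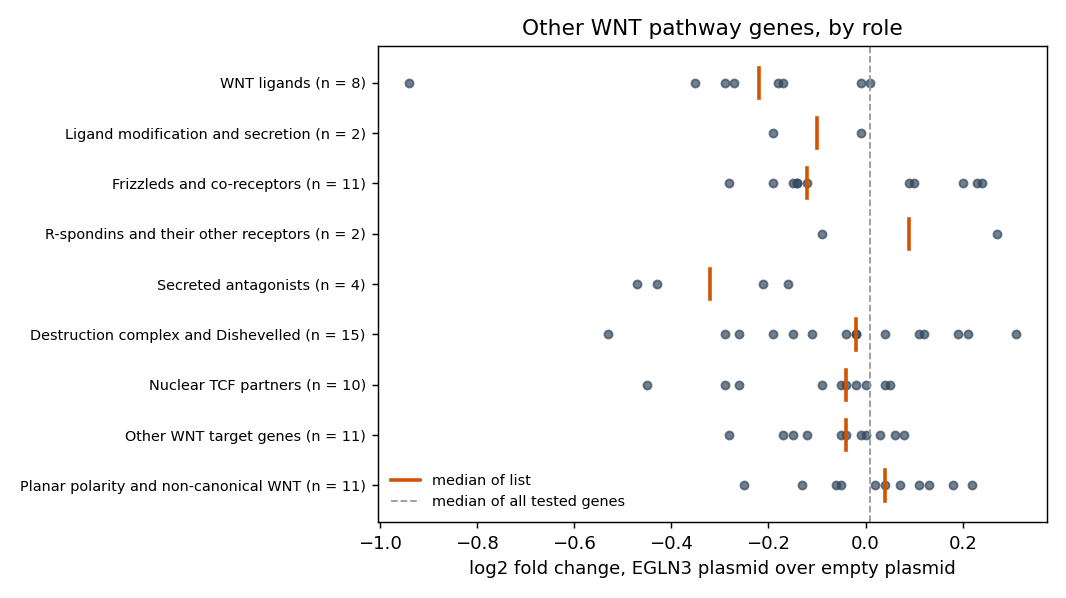
Log2 fold change, EGLN3 plasmid over empty plasmid, of the 74 other WNT pathway genes that passed the filter, 1 point per gene and 1 row per role, with the median of each list as an orange bar and the median of all tested genes (0.01) as a dashed line. The ligands (-0.22, 8 genes) and secreted antagonists (-0.32, 4 genes) have the lowest medians, and 0 of the 74 genes were called in the uncorrected fit, which gave these values.

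The genes whose profile over the 6 libraries lay nearest to each of the set were found by the root mean square difference of centred log2 CPM, as a description. Candidates were the other tested genes with a mean of at least 1 CPM, chromosome Y left out. Each pair was picked as closest among them, so closeness is partly built in. The nearest to ROR1 were the pseudogene AC044860.1 and FOXN3, a forkhead factor, both at 0.13, where a flat profile would lie at 0.63. ZNRF3 lay nearest to CIP2A and BRCA1, both at 0.02, where a flat profile would lie at 0.30. RNF43 lay nearest to HAX1 (0.03) and CINP (0.04), and NKD1 to TBC1D16 (0.03) and PPARA (0.04). With AXIN2 and TCF7 flat profiles themselves lay at 0.06, so their neighbours GBA2, PTPN23, GYS1 and HDAC6, each at 0.02, were not much nearer than a flat profile. For ROR2 these were WDTC1 (0.05) and NRBP2 (0.06), with a flat profile at 0.17. For LEF1 they were HTR7 and AC009404.1 (both 0.08, flat profile 0.28), and for TCF7L2 BRD3OS and POLR3G (both 0.04, flat profile 0.13).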

How the data were processed

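RNA sequencing libraries of NCI-N87 cells were grouped by their titles into 3 with the EGLN3 plasmid and 3 with the empty plasmid. The deposited counts are whole reads per gene with no scaling, and the deposited FPKM values are the authors' counts per gene length and 1 factor per library, from the values. Per the submitters' processing notes, HISAT2 2.0.5, featureCounts 1.5.0-p3, DESeq2 1.20.0 and hg38 were used, with no role given. Annotation and strand setting were not given in the sources used here. By position, 58653 of 58735 genes match GENCODE release 29.

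After filterByExpr and TMM scaling, counts were tested in R 4.3.3 with edgeR 4.0.16 (robust quasi-likelihood test, no covariate, adjusted p under 0.05). The SE is the log2 fold change divided by the square root of F. Between libraries, 1 CPM is 15.16 to 17.19 counts. Within groups, chi-square over its degrees of freedom was 8.98 to 118 for pairs of libraries, so no pair agreed within sampling noise. Centred log2 CPM used a prior count of 2. The second fit used 1 variable from svaseq (sva 3.50.0) and spline trends with 5 degrees of freedom on GC content and length of the longest transcript. Alternatives were DESeq2 1.42.0, limma-voom (limma 3.58.1), RLE scaling, other filters, a replicate block, leaving out each library, and limma on log2 FPKM with 1 or 0.1 added. The procedures were run on simulated data with gene noise taken from the second fit, which does not show how well they do on these libraries. Members, lists and tests were chosen with earlier results of these data known. Named from each list were the 2 genes with the highest mean FPKM, any called, and the one with the largest difference. Outside that rule, WNT3, WNT10B, WNT5A, CTBP1, FZD8, FZD10, LRP6, CTNNB1, CSNK1A1, CELSR1, SP5, KREMEN2 and TCF7L1 were named after their values were seen.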

Additional observations from a re-analysis of the deposited data

How the results depend on the processing

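The count of genes called was 1 (EGLN3) with edgeR, and 0 with limma-voom, with limma on log2(FPKM + 1) with or without a filter, and with the replicate block. It was 713 with 1 surrogate variable (169 of them higher with EGLN3) and 165 with GC and length trends added. Leaving out 1 library gave 0 to 1 calls. In the fit with surrogate variable and trends, an alternative chosen after seeing the data, it gave 56, 73 and 50 calls without EGLN3 replicates 1 to 3 and 171, 166 and 270 without control replicates 1 to 3. Of the WNT set, 2 were called with the surrogate variable alone (ROR1 and NKD1), 1 with trends added, and 0 to 1 when 1 library was left out of that fit. Since the comparison took part in choosing that set, nothing is read from these. Of the other WNT genes 11 were called with the surrogate variable alone, all lower with EGLN3, 0 with trends added, and 0 to 2 when 1 library was left out of that fit. With the replicate block 0 of the WNT set and 0 of the other WNT genes were called. Libraries of the same number did not deviate together (r = -0.79, -0.18 and -0.67 for numbers 1 to 3, across genes). Pairs of unlike number ran from -0.50 to 0.75. No pairing by number was thus seen, but one hidden behind the first principal component was not tested.

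Over 23 alternatives the log2 fold change of ROR1 ran from -0.73 to 0.06 and had the opposite sign in 1, that without control replicate 1. That of AXIN2 ran from -0.07 to 0.05 with 6 opposite signs, ZNRF3 from -0.14 to 0.25 with 5, RNF43 from -0.23 to 0.21 with 2, and NKD1 from -0.31 to 0.16 with 2. ROR2 and LGR5, at 1 to 20 counts per library, are limited by depth. The causes of these shifts were not tested.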
